A study of Mus musculus with 22 samples.

Results

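Gene expression in the terminal ileum of female NOD mice was compared between animals given antibiotic pulses at therapeutic dose (PAT) and animals given a sub-therapeutic level of antibiotic (STAT). NOD is an inbred mouse strain in which autoimmune diabetes arises. All 3 PAT females and all 3 STAT females were taken by their treatment and sex labels, 6 of the 22 arrays of the series. The other arrays came from 3 control females, 5 control males, 3 STAT males and 5 PAT males of the same tissue and strain. Each array was hybridised with biotin-labelled RNA of 1 sample. Drugs, doses, timing and ages are not named in the labels, and nothing in the labels says that samples came from separate animals, so p-values measure only the spread among these samples. Values are RMA levels on the log2 scale, where a difference of 1 is a 2-fold change. A level is the brightness of a probe set and is not compared between genes. One probe set stood for each of 18193 genes. Differences are PAT minus STAT with their standard error (SE) from limma, and a gene was called higher or lower at a Benjamini-Hochberg adjusted p under 0.05. Rose and fell are used of called genes.

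The terminal ileum absorbs bile acids and faces a dense bacterial community. Its epithelium renews from dividing crypt cells, and it answers bacterial contact with secreted antibacterial lectins, serum amyloid A proteins and interferon-dependent genes. Growth factor signals run through the ERK kinase cascade, which switches on immediate early transcription factors and then its own brakes, the dual-specificity phosphatases and Sprouty proteins. Antibiotics change that community, and the comparison asks how the ileum differs between the pulsed therapeutic and the sub-therapeutic regimen.

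Xist and the Y-linked Eif2s3y placed all 22 arrays in the labelled sex. The ileal bile acid-binding protein Fabp6 was at 14.34, 14.62 and 14.57 in PAT females 1 to 3 and at 13.93, 14.20 and 14.06 in STAT females 1 to 3. PAT female 1 stood apart from the other female arrays. Its correlation with them over all genes ran from 0.985 to 0.991, against 0.989 to 0.996 among the other 8. Its mean level over 14 B cell and follicle markers was 6.87, against 5.31 and 5.38 in the other PAT females and 5.34 to 5.39 in STAT females. Ms4a1, the B cell antigen CD20, was at 9.16, 4.65 and 4.67 in PAT females 1 to 3 and at 4.77, 4.49 and 4.86 in STAT females 1 to 3. Lactase (Lct), a brush border disaccharidase, was at 10.37, 4.81 and 4.22 in PAT females 1 to 3 and at 4.19, 4.76 and 4.35 in STAT females 1 to 3. Whether this sample held lymphoid tissue or a more proximal piece of gut was not tested. STAT males 2 and 3 also stood apart, with a beta-actin signal higher at the 3-prime end of the transcript by up to 0.60 (log2), against at most 0.42 in every other array. The same end difference of Gapdh ran from -0.11 to -0.03 in PAT females and from -0.15 to -0.10 in STAT females, and its part in the differences was not tested beyond a fit with it as a covariate, which called 122 genes and ended the calls of 9 named genes, given beside each. Because the tissue was measured in bulk, fewer cells of a type and less RNA per cell cannot be told apart.

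PAT and STAT females differed in 157 of 18193 genes (0.863%), of which 96 (0.528%) were higher and 61 (0.335%) lower in PAT. Of the called genes 111 differed at least 1.5-fold and 33 at least 2-fold, with a median size of 0.69 on the log2 scale (1.62-fold). The median difference of all genes was -0.0061, and 48.5% of genes lay above 0. The PAT and STAT values of 156 called genes did not overlap, as was true of 22.4% of all genes. The exception was the dim antisense transcript Zfhx2os. With control females added, PAT lay outside the joint range of STAT and control in 152 called genes, against 15% of all genes. Outside that count were 1700018B24Rik, A130010J15Rik, Pcnx2, Tppp3 and Zfhx2os, which were named after their values were seen. The calls rest on the same PAT and STAT values, so neither count is separate support for them.

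The number of calls depended on single arrays. Limma called 80 genes without PAT female 1 (59 of them among the 157), 82 without PAT female 2 (67), 86 without PAT female 3 (67), 43 without STAT female 1 (40) and 29 without STAT female 2 (25). The count moved least without STAT female 3, to 118 (93). Repeating quantile normalization gave 109 higher and 130 lower. Of the 33 genes named by the rule for this comparison, 7 were called in all 6 runs that left out 1 of the compared arrays: Rab30, Dusp6, Tcf23, Fst, Phlda2, Nat8f4 and G6pc. Where a call ended on leaving out an array, the arrays are named with the range of the log2 difference and the largest adjusted p over these 6 runs, and with the value under the Gapdh covariate where that also ended it. With only the 6 compared arrays in the fit 18 of the 33 calls ended, Nat8f4 among them. Of the named genes with another probe set whose mean level was 6 or more, that probe set differed less in Chka (0.50 and 0.78), Nat8f4 (0.94 in one of 2), Odc1 (0.35 in one of 2), Nip7 (0.14) and Stx6. Averaging probe sets, dim ones included, moved 7 named genes by over 1.5 times: Rab30 to 2.42, Plat to 0.92, Chka to 0.95, Slc20a1 to 0.74, Stx6 to -0.13, Fhl1 to -0.46 and Nip7 to 0.36, of which the last 3 lost their call (adjusted p = 0.34, 0.13 and 0.086). In all, averaging ended 7 of the 33 calls, also those of Psat1 (adjusted p = 0.051), Cebpb (0.054), Irf1 (0.0504) and Odc1 (0.083).

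**Figure D1:**
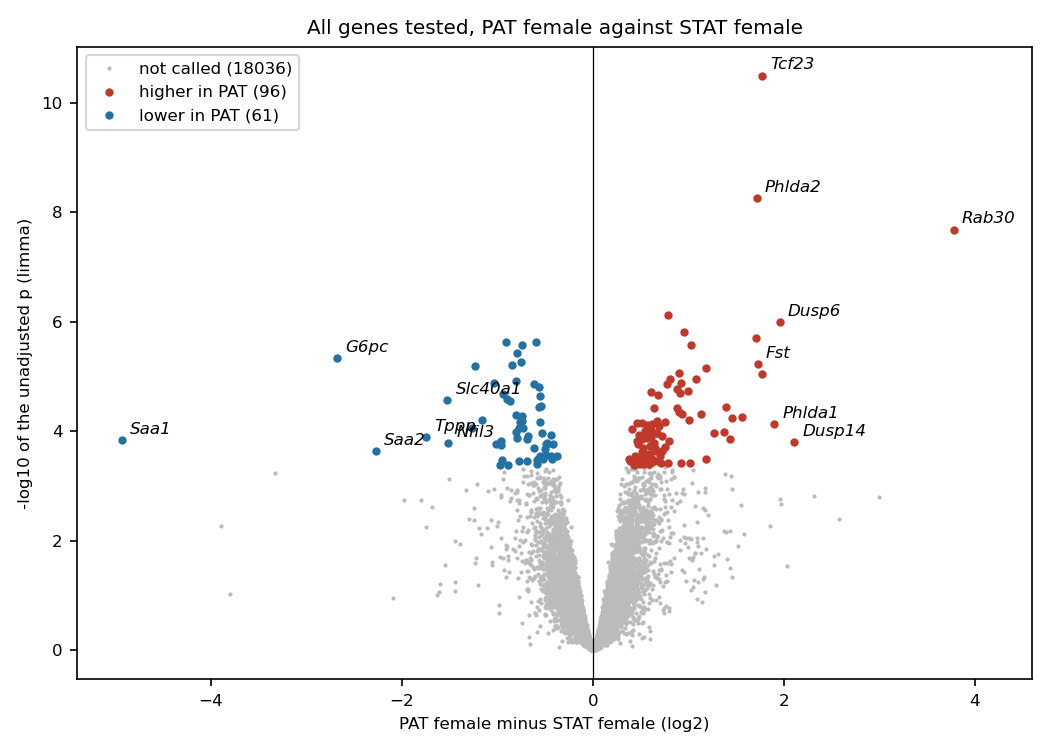
Each point is 1 of 18193 genes, with the log2 difference between PAT and STAT females on the horizontal axis and -log10 of the unadjusted limma p on the vertical axis. Red points are the 96 genes called higher and blue points the 61 called lower in PAT; Rab30 and Saa1 lie farthest out on either side.

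Rab30, a small GTPase of the Golgi, rose most. It was at 11.72, 11.14 and 12.86 in PAT females 1 to 3 and at 8.01, 8.72 and 7.65 in STAT females 1 to 3. The 3 PAT arrays were all above the 3 STAT arrays, which lay around the control females (8.03, 8.25 and 8.25). The difference was 3.78 ± 0.43 (SE), a 13.7-fold rise (95% interval on the log2 scale 2.88 to 4.68, adjusted p = 0.00013). Tcf23, a helix-loop-helix transcription factor, had the smallest p of all genes. It was at 8.67, 8.72 and 9.04 in PAT females 1 to 3 and at 7.06, 7.25 and 6.82 in STAT females 1 to 3. PAT was narrowly grouped and clear of STAT, with a rise of 1.77 ± 0.14 (3.4-fold, adjusted p = 5.9e-07). Phlda2, an imprinted gene whose pleckstrin homology domain protein restrains growth, was at 7.22, 7.84 and 7.87 in PAT females 1 to 3 and at 5.89, 5.71 and 6.17 in STAT females 1 to 3. It rose by 1.72 ± 0.18 (3.29-fold, adjusted p = 5e-05) without overlap.

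Secreted and signalling proteins were among the other large rises. Fst encodes follistatin, which binds and blocks activins. It was at 9.68, 9.43 and 8.84 in PAT females 1 to 3 and at 7.75, 7.34 and 7.69 in STAT females 1 to 3, and rose by 1.73 ± 0.29 (adjusted p = 0.007). Plat, the tissue plasminogen activator, was at 9.55, 8.72 and 9.76 in PAT females 1 to 3 and at 7.62, 7.40 and 7.70 in STAT females 1 to 3, a rise of 1.77 ± 0.30 (adjusted p = 0.0083). PAT was above STAT in every array for both genes. The call ended for Plat without STAT female 2 (1.56 to 2.08, adjusted p up to 0.054).

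A transporter and enzymes of metabolism rose too. Nat8f4, of an N-acetyltransferase family, was at 10.28, 10.04 and 11.19 in PAT females 1 to 3 and at 8.63, 8.91 and 8.83 in STAT females 1 to 3, and rose by 1.71 ± 0.26 (adjusted p = 0.0045). Chka, the choline kinase that starts phosphatidylcholine synthesis, rose by 1.56 ± 0.31 (adjusted p = 0.021), with PAT at 9.90, 9.75 and 11.03 and STAT at 8.73, 8.78 and 8.47. The phosphate transporter Slc20a1 rose by 1.46 ± 0.29 (adjusted p = 0.021), with PAT at 9.90, 10.18 and 10.96 and STAT at 8.89, 8.67 and 9.10. For all 3 genes PAT female 3 was the highest array and no PAT array lay in the STAT range. Efhd1, a mitochondrial calcium-binding protein, was at 6.04, 6.10 and 7.24 in PAT and 5.02, 4.95 and 5.08 in STAT, a rise of 1.44 ± 0.31 (adjusted p = 0.029) with PAT female 3 highest. Calls ended for Chka without PAT female 3 or any STAT female (1.16 to 1.80, adjusted p up to 0.078), for Slc20a1 without PAT female 3 or STAT female 1 or 2 (1.15 to 1.69, adjusted p up to 0.13) and for Efhd1 without PAT female 3 or any STAT female (1.05 to 1.65, adjusted p up to 0.14).

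**Figure D2:**
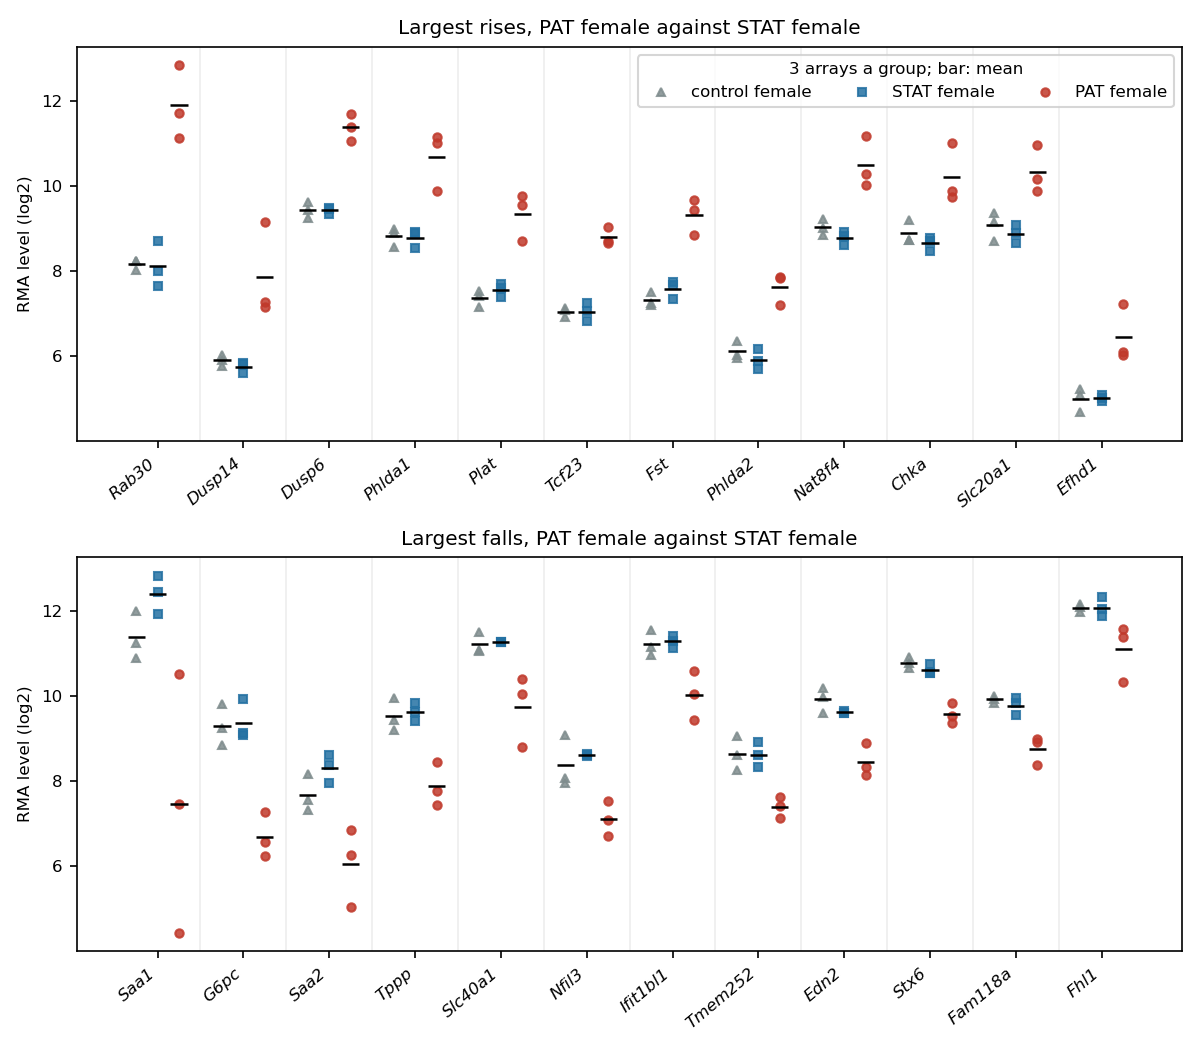
RMA levels (log2, vertical axis) of the 12 largest rises and 12 largest falls among called genes, in 3 control (triangles), 3 STAT (squares) and 3 PAT (circles) female arrays, with the group mean as a bar. STAT and control arrays lie close together for most genes while PAT stands off, and Saa1 spreads widest within PAT, from 4.43 to 10.54.

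Genes that brake the ERK cascade were among the rises. Of 12 measured members of the ERK feedback list 4 rose (0.528% of all genes did), 0 fell and 8 did not pass the test. The list's median was 0.49 against -0.0061 over all genes. This and the other gene lists were chosen with earlier results of these data known. Counts of calls within them are therefore not an independent test. Dusp6, the phosphatase specific for ERK, was at 11.40, 11.07 and 11.69 in PAT females 1 to 3 and at 9.46, 9.34 and 9.49 in STAT females 1 to 3. It rose by 1.96 ± 0.29 (3.88-fold, adjusted p = 0.0037), with a gap between the groups wider than the spread within either. Dusp14, a phosphatase of the same superfamily, was at 7.28, 7.16 and 9.16 in PAT females 1 to 3 and at 5.61, 5.82 and 5.84 in STAT females 1 to 3. Its rise of 2.11 ± 0.46 (adjusted p = 0.031) was uneven, since PAT female 3 stood well above the others. Phlda1, a growth factor-induced pleckstrin homology protein, was at 9.89, 11.02 and 11.15 in PAT and at 8.90, 8.55 and 8.91 in STAT, a rise of 1.90 ± 0.39 (adjusted p = 0.022). The nuclear ERK phosphatase Dusp5 rose by 1.01 ± 0.20 (adjusted p = 0.022). Spry2 (0.80 ± 0.26, adjusted p = 0.13) and Dusp4 (0.63 ± 0.21, adjusted p = 0.15) did not pass. The list held 3 calls without PAT female 1 and a median of 0.54. Calls ended for Dusp14 without PAT female 3 or any STAT female (1.47 to 2.46, adjusted p up to 0.13), for Phlda1 without PAT female 2 or 3 or STAT female 1 or 2 (1.67 to 2.30, adjusted p up to 0.13) and for Dusp5 without PAT female 1 or 3 or STAT female 1 or 2 (0.89 to 1.12, adjusted p up to 0.095).

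Immediate early genes, which the same cascade induces within minutes of a stimulus, had a median of 0.51 with 17 of 20 members above 0. Of the 20 members 0 passed the test. An unadjusted p under 0.05 was found for 9, against 15.2% of all genes in either direction. Egr1 was at 11.11, 12.32 and 12.19 in PAT females 1 to 3 and at 9.30, 9.29 and 10.06 in STAT females 1 to 3, a difference of 2.32 ± 0.64 (adjusted p = 0.078). PAT was above STAT throughout, and both groups varied widely. Maff (1.45 ± 0.36, adjusted p = 0.06) and Fos (1.41 ± 0.56, adjusted p = 0.23) had differences of similar size. Of its members Maff alone was called once PAT female 1 was left out (1.75 ± 0.38, adjusted p = 0.042), and it was singled out after its value was seen.

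Saa1 and Saa2, acute phase genes that gut epithelium expresses on contact with bacteria, fell. They lie on chromosome 7 with opposite orientation and 8853 bases between their starts. The 250 bases before each start are shown because these genes fell together. RefSeq gives them on build GRCm38.p6 at chr7:46742981-46743230, minus strand for Saa1 and chr7:46751583-46751832, plus strand for Saa2, and capitals mark bases that differ in the alignment of both.
Saa1: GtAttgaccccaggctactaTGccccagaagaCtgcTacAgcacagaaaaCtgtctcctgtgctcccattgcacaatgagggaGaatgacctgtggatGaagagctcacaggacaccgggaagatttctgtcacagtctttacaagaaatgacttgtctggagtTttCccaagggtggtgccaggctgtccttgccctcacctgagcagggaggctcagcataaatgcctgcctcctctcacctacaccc
Saa2: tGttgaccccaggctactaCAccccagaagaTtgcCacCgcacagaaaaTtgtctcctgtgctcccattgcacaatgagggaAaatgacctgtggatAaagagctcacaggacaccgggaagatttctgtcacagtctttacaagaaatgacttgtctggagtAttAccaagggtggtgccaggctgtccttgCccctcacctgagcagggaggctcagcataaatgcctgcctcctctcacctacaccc
The windows were 94.8% identical (238 of 251 aligned positions). They lie before the transcribed bases, so this identity says nothing about the probe sets. Cross-hybridisation between Saa1 and Saa2 was not tested. None of the 7 motifs searched, listed with the interferon genes, had a match in either window.

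Saa1 was at 4.43, 10.54 and 7.48 in PAT females 1 to 3 and at 11.95, 12.83 and 12.46 in STAT females 1 to 3. Every PAT array was below every STAT array, and the PAT arrays spread widely. The gene fell by 4.93 ± 1.06 (SE), 30.6-fold (95% interval on the log2 scale -7.15 to -2.72, adjusted p = 0.029). Saa2 was at 5.03, 6.85 and 6.27 in PAT females 1 to 3 and at 7.97, 8.63 and 8.38 in STAT females 1 to 3 and fell by 2.27 ± 0.51 (4.84-fold, adjusted p = 0.037). Calls ended for Saa1 without PAT female 1 or 3 or any STAT female (-6.46 to -3.41, adjusted p up to 0.14; Gapdh term -4.40, adjusted p = 0.051) and for Saa2 without PAT female 1 or 3 or any STAT female (-2.68 to -1.77, adjusted p up to 0.16). The lowest array in both was PAT female 1.

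Most epithelial defence genes lay below 0. Of 19 measured members of that list 0 rose, 3 fell (0.335% of all genes did) and 16 did not pass, with 17 below 0 and a median of -0.34. The third call was Reg3g, a lectin that kills Gram-positive bacteria, which was at 13.17, 13.94 and 13.72 in PAT females 1 to 3 and at 14.37, 14.51 and 14.33 in STAT females 1 to 3 and fell by 0.79 ± 0.17 (adjusted p = 0.029). Its close relative Reg3b (-0.34 ± 0.10, adjusted p = 0.11) did not pass. Retnlb, the goblet cell resistin-like molecule, was at 3.52, 7.74 and 5.81 in PAT females 1 to 3 and at 8.40, 10.59 and 9.77 in STAT females 1 to 3, a difference of -3.90 ± 1.26 (adjusted p = 0.13) that did not pass, and its groups did not overlap. Without PAT female 1 the list held 0 calls, with a median of -0.34. The call ended for Reg3g without PAT female 1 or 3 or any STAT female (-0.96 to -0.57, adjusted p up to 0.15; Gapdh term -0.71, adjusted p = 0.051).

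An enzyme of glucose release and an iron exporter fell too. G6pc encodes the glucose-6-phosphatase that releases free glucose. It was at 7.28, 6.58 and 6.25 in PAT females 1 to 3 and at 9.13, 9.94 and 9.08 in STAT females 1 to 3. It fell by 2.68 ± 0.44 (6.41-fold, adjusted p = 0.0064) with no PAT array near the STAT range. The iron exporter ferroportin, Slc40a1, was at 8.81, 10.40 and 10.05 in PAT females 1 to 3 and at 11.28, 11.28 and 11.27 in STAT females 1 to 3. It fell by 1.52 ± 0.29 (2.88-fold, adjusted p = 0.013), most in PAT female 1. The transferrin receptor Tfrc, which takes up iron, rose by 0.64 ± 0.12 (adjusted p = 0.016), from 12.29, 12.15 and 12.19 in STAT to 12.87, 12.72 and 12.97 in PAT. These were the 2 calls among 11 members of the iron and heme list (0.863% of all genes were called), whose median was -0.03. Calls ended for Slc40a1 without STAT female 1 or 2 (-1.85 to -1.05, adjusted p up to 0.068) and for Tfrc without PAT female 3 or STAT female 2 (0.59 to 0.71, adjusted p up to 0.1). In the sugar list of 12 members G6pc was the single call, against 0.863% of all genes called. Slc2a2, a glucose transporter, differed by 2.58 ± 0.80 (adjusted p = 0.11) with PAT female 1 at 10.02 and the other PAT arrays at 6.02 and 7.48.

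The remaining large falls had varied roles. Tppp, which promotes tubulin polymerisation, was at 7.44, 8.45 and 7.78 in PAT females 1 to 3 and at 9.62, 9.85 and 9.43 in STAT females 1 to 3 and fell by 1.74 ± 0.37 (adjusted p = 0.028). Nfil3, a leucine zipper repressor tied to the circadian clock, was at 7.54, 7.09 and 6.71 in PAT females 1 to 3 and at 8.65, 8.61 and 8.61 in STAT females 1 to 3 and fell by 1.51 ± 0.33 (adjusted p = 0.031). STAT was almost constant for Nfil3 while PAT varied below it. Edn2, the vasoactive peptide endothelin-2, fell by 1.17 ± 0.23 (adjusted p = 0.022), with PAT at 8.34, 8.14 and 8.90 and STAT at 9.62, 9.66 and 9.60. The membrane protein gene Tmem252 fell by 1.23 ± 0.21 (adjusted p = 0.007), the SNARE gene Stx6 by 1.03 ± 0.18 on the probe set used (adjusted p = 0.0093) and Fam118a by 1.01 ± 0.22 (adjusted p = 0.031). The other 5 Stx6 probe sets lay between -0.08 and 0.10, one of them (mean level 9.89) nearly as bright as the one used (10.24), and the mean over probe sets differed by -0.13 (adjusted p = 0.34). Fhl1, a LIM protein of muscle, fell by 0.98 ± 0.23 (adjusted p = 0.048), and its PAT values were 10.34, 11.59 and 11.40. The smooth muscle list, with 0 of 11 members called, had a median of -0.35 and was lowest in PAT female 1 (10.52, against 10.91 to 11.57 in STAT), and its part in the Fhl1 value was not tested. The call of Fhl1 ended in 7 of 11 other settings. Calls ended for Tppp without PAT female 1 or 3 or STAT female 1 or 2 (-2.02 to -1.52, adjusted p up to 0.15; Gapdh term -1.59, adjusted p = 0.051), for Nfil3 without PAT female 2 or 3 or any STAT female (-1.73 to -1.31, adjusted p up to 0.13), for Edn2 without PAT female 1 or 2 or STAT female 1 or 2 (-1.39 to -1.01, adjusted p up to 0.1) and for Tmem252 without STAT female 2 (-1.37 to -1.09, adjusted p up to 0.054). Calls ended for Stx6 without STAT female 2 (-1.16 to -0.93, adjusted p up to 0.068), for Fam118a without PAT female 1 or 2 or any STAT female (-1.13 to -0.82, adjusted p up to 0.16) and for Fhl1 without PAT female 1 or 3 or any STAT female (-1.22 to -0.59, adjusted p up to 0.17; Gapdh term -0.84, adjusted p = 0.077).

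Interferon-response genes lay lower in PAT with few calls. Of 29 members 0 rose, 1 fell (0.335% of all genes did) and 28 did not pass, and 5 lay above 0 (48.5% of all genes did) with a median of -0.24. The transcription factor Irf1 was at 9.75, 10.004 and 9.82 in PAT females 1 to 3 and at 10.94, 10.72 and 10.76 in STAT females 1 to 3 and fell by 0.95 ± 0.22 (adjusted p = 0.045). Ifit1, which binds foreign RNA, was at 6.25, 6.12 and 5.78 in PAT and 7.57, 7.71 and 7.92 in STAT (-1.69 ± 0.49, adjusted p = 0.098), apart in every array but not past the threshold. Antigen presentation genes of class I had 0 calls among 11, with 10 below 0 and a median of -0.24. The interferon list held 0 calls without PAT female 1. The call ended for Irf1 without any PAT female or any STAT female (-1.02 to -0.88, adjusted p up to 0.15; Gapdh term -0.93, adjusted p = 0.07).

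Ifit1bl1, a member of the same IFIT family outside the list, was at 9.45, 10.05 and 10.60 in PAT females 1 to 3 and at 11.31, 11.15 and 11.42 in STAT females 1 to 3. It fell by 1.26 ± 0.26 (2.4-fold, adjusted p = 0.024). The call ended for Ifit1bl1 without PAT female 1 or 2 or any STAT female (-1.54 to -0.97, adjusted p up to 0.11). The 250 bases before its first listed start are shown for their 2 matches to the interferon response element core GAAANNGAA (capitals). RefSeq gives them on build GRCm38.p6 at chr19:34601969-34602218, minus strand.
Ifit1bl1: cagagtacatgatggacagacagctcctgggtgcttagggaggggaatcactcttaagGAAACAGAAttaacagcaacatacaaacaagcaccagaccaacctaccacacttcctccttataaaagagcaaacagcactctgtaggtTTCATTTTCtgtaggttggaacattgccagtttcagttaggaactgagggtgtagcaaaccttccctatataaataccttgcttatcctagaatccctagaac
Their first bases lie 192 and 103 bases before the start. The motif, read on both strands, was found in 7.13% of all 32851 promoter windows of this length, in 6 of 99 windows of genes called higher (6.06%) and in 7 of 70 of genes called lower (10%). Some genes have more than 1 window, and these can repeat the same match, so windows are not separate genes. Counted by gene, the motif was in 2211 of all 27025, in 5 of 74 called higher and in 5 of 51 called lower. The other motifs searched were CACGTG (E-box), GAANNTTC (heat shock), TGACGTGG (unfolded protein response), ATCACNCCA (sterol response), TGACNNNGC (antioxidant response) and TGACGTCA (cyclic AMP response). They were in 6.02%, 6.69%, 0.563%, 0.712%, 10.2% and 1.55% of all windows. In the same order they were in 11.1%, 4.04%, 1.01%, 0%, 19.2% and 1.01% of windows of genes called higher and in 5.71%, 12.9%, 0%, 0%, 15.7% and 2.86% of those called lower. The widest gaps in percentage points from all windows were those of the antioxidant response (19 of 99 higher), heat shock (9 of 70 lower), antioxidant response (11 of 70 lower) and E-box motifs (11 of 99 higher), and none was tested. In the same order these were 16 of 74, 8 of 51, 9 of 51 and 9 of 74 genes. Of all 27025 genes 3112 had the antioxidant response, 2088 the heat shock and 1854 the E-box motif. Overlaps between motifs were allowed, and 27 of the 33 named genes had an entry.

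Genes of ribosome assembly and other Myc-linked growth genes lay above 0. Of 16 members 3 rose (0.528% of all genes did), 0 fell and 13 did not pass, and all 16 were higher in PAT than in STAT on average, with a median of 0.51. Rrs1, a factor of large subunit assembly, was at 10.39, 10.63 and 10.29 in PAT females 1 to 3 and at 9.57, 9.43 and 9.91 in STAT females 1 to 3 and rose by 0.80 ± 0.17 (adjusted p = 0.03). Odc1, the first enzyme of polyamine synthesis, rose by 0.62 ± 0.14 (adjusted p = 0.032) and Nip7, another assembly factor, by 0.58 ± 0.13 (adjusted p = 0.04). Nop56 (0.70 ± 0.18, adjusted p = 0.062) was just outside. Without PAT female 1 the list held 0 calls and a median of 0.49. Calls ended for Rrs1 without PAT female 1 or 2 or STAT female 1 or 2 (0.70 to 0.94, adjusted p up to 0.16; Gapdh term 0.71, adjusted p = 0.051), for Odc1 without any PAT female or STAT female 1 or 2 (0.54 to 0.73, adjusted p up to 0.16; Gapdh term 0.59, adjusted p = 0.056) and for Nip7 without any PAT female or STAT female 1 or 2 (0.51 to 0.68, adjusted p up to 0.2; Gapdh term 0.56, adjusted p = 0.066).

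Cell division genes had 0 of 25 members called, against 18 higher at an unadjusted p under 0.05. Of all genes 15.2% had such a p, in either direction. All 25 lay above 0, with a median of 0.51. The mean level of the list was 9.11 to 9.31 in PAT, 8.51 to 8.99 in STAT and 8.59 to 8.84 in control females, so that PAT was above both. Plk1, the mitotic kinase, was at 8.49, 8.68 and 8.09 in PAT females 1 to 3 and at 7.83, 7.68 and 7.96 in STAT females 1 to 3, a difference of 0.60 ± 0.17 (adjusted p = 0.084). Without PAT female 1 the median was 0.50 and all 25 again lay above 0. The list of stem cell markers had a median of -0.01 and 0 calls.

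Of 15 targets of the stress factors ATF4 and CHOP 2 rose (0.528% of all genes did), 0 fell and 13 did not pass, with a median of 0.20. Psat1, of serine synthesis, was at 8.74, 8.55 and 8.49 in PAT females 1 to 3 and at 7.27, 7.18 and 7.77 in STAT females 1 to 3 and rose by 1.18 ± 0.28 (2.27-fold, adjusted p = 0.045). The transcription factor Cebpb rose by 0.62 ± 0.15 (adjusted p = 0.045), with PAT at 10.47, 10.52 and 10.45 and STAT at 9.81, 9.83 and 9.93. Phgdh, the enzyme before Psat1 in serine synthesis, differed by 0.88 ± 0.25 (adjusted p = 0.089). Endoplasmic reticulum stress genes had 0 calls among 17 and a median of 0.22. The ATF4 list held 0 calls without PAT female 1. Calls ended for Psat1 without any PAT female or STAT female 1 or 2 (1.07 to 1.37, adjusted p up to 0.2; Gapdh term 1.13, adjusted p = 0.072) and for Cebpb without any PAT female or any STAT female (0.60 to 0.66, adjusted p up to 0.16).

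**Figure D3:**
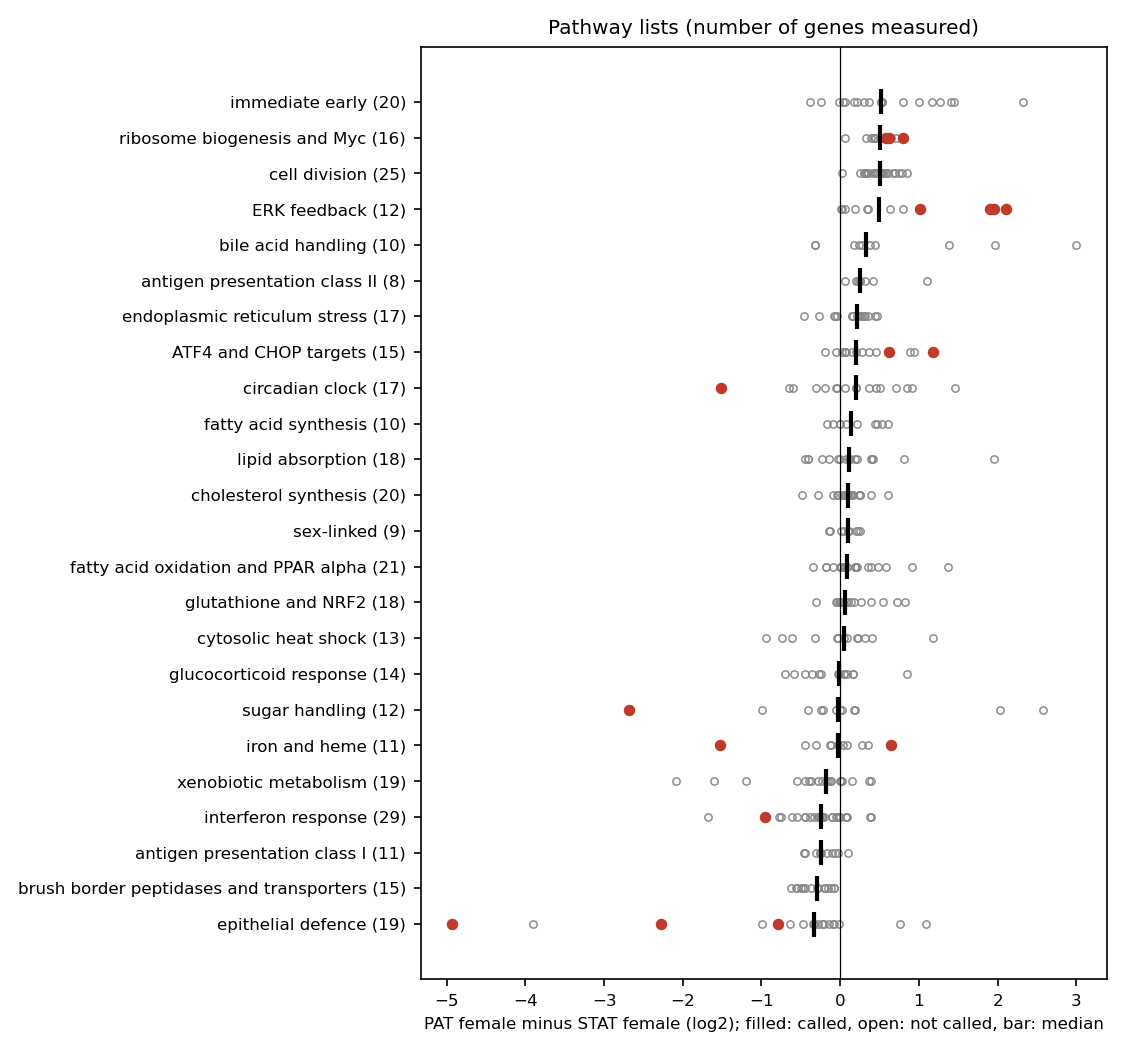
Log2 difference between PAT and STAT females (horizontal axis) for each measured gene of 24 pathway lists, with the number of genes in brackets. Filled points were called, open points were not, and bars are list medians; ERK feedback, ribosome, cell division and immediate early lists have the highest medians, between 0.49 and 0.51, and epithelial defence the lowest, -0.34.

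Bile acid genes had 0 of 10 members called and a median of 0.33. Fgf15, the hormone by which the ileum limits bile acid synthesis in the liver, was at 11.36, 8.07 and 8.92 in PAT females 1 to 3 and at 6.16, 7.64 and 5.57 in STAT females 1 to 3. The PAT values lay above STAT, widely spread and highest in PAT female 1, for a difference of 2.99 ± 0.83 (adjusted p = 0.081). The bile acid-induced repressor Nr0b2 (1.97 ± 0.56, adjusted p = 0.09) and the export pump Abcc2 (1.39 ± 0.34, adjusted p = 0.058) did not pass. Fabp6 differed by 0.45 ± 0.11 (adjusted p = 0.053). Without PAT female 1, Fabp6 alone was called, as higher (0.53 ± 0.12, adjusted p = 0.045), and it was singled out after its value was seen.

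Brush border peptidases and transporters went the other way, with 0 of 15 members called, all 15 below 0 and a median of -0.30. The protease Mep1a was at 12.15, 12.45 and 12.69 in PAT females 1 to 3 and at 12.89, 13.11 and 12.93 in STAT females 1 to 3, a difference of -0.55 ± 0.16 (adjusted p = 0.099). The mean level of the list was 11.54 to 11.87 in PAT and 11.89 to 12.15 in STAT, just apart. The list's values in males are given with the sex comparison. General enterocyte markers had a median of 0.03 and 0 of 10 called. Of 17 circadian clock genes Nfil3 was the single call (0.863% of all genes were called). Arntl (-0.65 ± 0.16, adjusted p = 0.056) and Dbp (1.46 ± 0.39, adjusted p = 0.071), which peak at opposed phases, lay on opposite sides of 0. Once PAT female 1 was left out, 1 clock gene was called higher and 1 lower, Dbp and Nfil3. The labels give no time of day.

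Of 43 lists 8 held a called member, and 17 of the 157 called genes were in a list. The lists held 577 of the 18193 genes tested and were chosen with earlier results of these data known. None of the 19 cell type lists held a call (0.863% of all genes were called). The B cell and follicle list had a median of 0.43 with PAT female 1 and -0.04 without it, and class II antigen presentation 0.25 and -0.08. The mean levels of both lists were highest in PAT female 1, at 6.87 and 9.20, against at most 5.39 and 8.10 in every other female array. Goblet markers had a median of -0.04 with 11 of 12 members below 0, and a mean level of 12.18 to 12.61 in PAT and 12.75 to 12.87 in STAT, which did not overlap. With PAT female 1 left out, their median was 0.014 and 7 of the 12 members lay above 0. Without Retnlb, which the epithelial defence list also holds, the mean level of the other 11 was 12.97 to 13.11 and 13.07 to 13.14, which overlapped, an alternative added after seeing the data. Medians of Paneth (0.0048), tuft (-0.04) and T cell markers (-0.02) lay near that of all genes. Without PAT female 1 they were -0.17, -0.03 and -0.13. The mean level of T cell markers was 5.92, 5.53 and 5.43 in PAT females 1 to 3 and 5.71 to 5.77 in STAT. The adipocyte list varied most within groups, from 6.99 to 9.19 in PAT and 7.27 to 8.64 in STAT. Pancreatic acinar markers were at 6.003 to 6.18 in PAT and 5.97 to 6.14 in STAT.

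The same genes were set against control females. These comparisons share arrays with the one above, so values are only set side by side. Limma called 610 genes (3.35%) between PAT and control females and 0 (0%) between STAT and control females. In the latter 602 genes had an unadjusted p under 0.05, the smallest adjusted p was 0.83, and 0 were called with the 9 female arrays alone or with a trended, robust variance, both added after seeing the data. Rab30 differed from control by 3.73 ± 0.43 in PAT and -0.05 ± 0.43 in STAT. Dusp6 differed from control by 1.94 ± 0.29 and -0.02 ± 0.29, and G6pc by -2.61 ± 0.44 and 0.07 ± 0.44. For Saa1 the values were -3.91 ± 1.06 (adjusted p = 0.046) and 1.03 ± 1.06, so that STAT lay above control, without passing the test. Saa2 had the same order (-1.64 ± 0.51, adjusted p = 0.072, and 0.64 ± 0.51). The epithelial defence list differed from control by a median of -0.14 in PAT and 0.20 in STAT. The interferon list lay below control in both groups, with a median of -0.54 in PAT and -0.33 in STAT. Its mean level was 7.06 to 7.21 in PAT, 7.40 to 7.46 in STAT and 7.49 to 8.02 in control females.

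The same contrast was read in male arrays. Their levels enter no female mean, but they share the fit's variance and the choice of probe set. Between 5 PAT and 3 STAT males 1585 genes were called (8.71%), 632 higher (3.47%) and 953 lower (5.24%). Of the 157 genes called in females 127 (80.9%) had the same sign in males, against 50.7% of all genes, and 64 were called in the same direction. The chromosome condensation gene Ncapg was the 1 called in the opposite direction. Of the 24 genes with the largest rises and falls 22 had the same sign and 17 were called in that direction. Without STAT males 2 and 3, which leaves 1 STAT male assumed to vary like the other groups, 62 genes were called, 20 of them among the 1585. Then 139 of the 157 (88.5%) had the female sign, against 57.3% of all genes, and 13 were called.

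Rab30 differed by 4.77 ± 0.39 in males (adjusted p = 8.7e-07), Dusp6 by 2.04 ± 0.26 (adjusted p = 0.00016), Dusp14 by 2.94 ± 0.41 (adjusted p = 0.00041) and Tcf23 by 1.22 ± 0.13 (adjusted p = 1.6e-05). Saa1 fell in males by 3.11 ± 0.95 (adjusted p = 0.045) and G6pc by 1.30 ± 0.39 (adjusted p = 0.042). STAT males were at 13.40, 10.51 and 8.87 for Saa1 and PAT males reached 8.95, so that the groups overlapped. They overlapped for G6pc too, with STAT males at 8.97, 7.71 and 7.69 and PAT male 3 at 8.04. Leaving out 1 male array gave from -4.14 to -1.87 for Saa1, the latter without STAT male 1 (adjusted p = 0.2), and the call remained only without PAT male 4 or STAT male 3. For G6pc the range was -1.60 to -0.88, the latter without STAT male 1 (adjusted p = 0.17), and the call remained only without PAT male 3. Rab30, Dusp6, Dusp14 and Tcf23 were called in all 8 such runs, but without STAT males 2 and 3 together the calls of Dusp6 (1.45, adjusted p = 0.089), Dusp14 (2.29, adjusted p = 0.14), Saa1 (-5.59, adjusted p = 0.059) and G6pc (-2.15, adjusted p = 0.12) ended. The female sign was not kept by Ifit1bl1 (0.40 ± 0.23 in males, adjusted p = 0.31) or Fhl1 (0.02 ± 0.21, adjusted p = 0.96). Their sex differences did not pass the interaction test (adjusted p = 0.086 and 0.13).

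**Figure D4:**
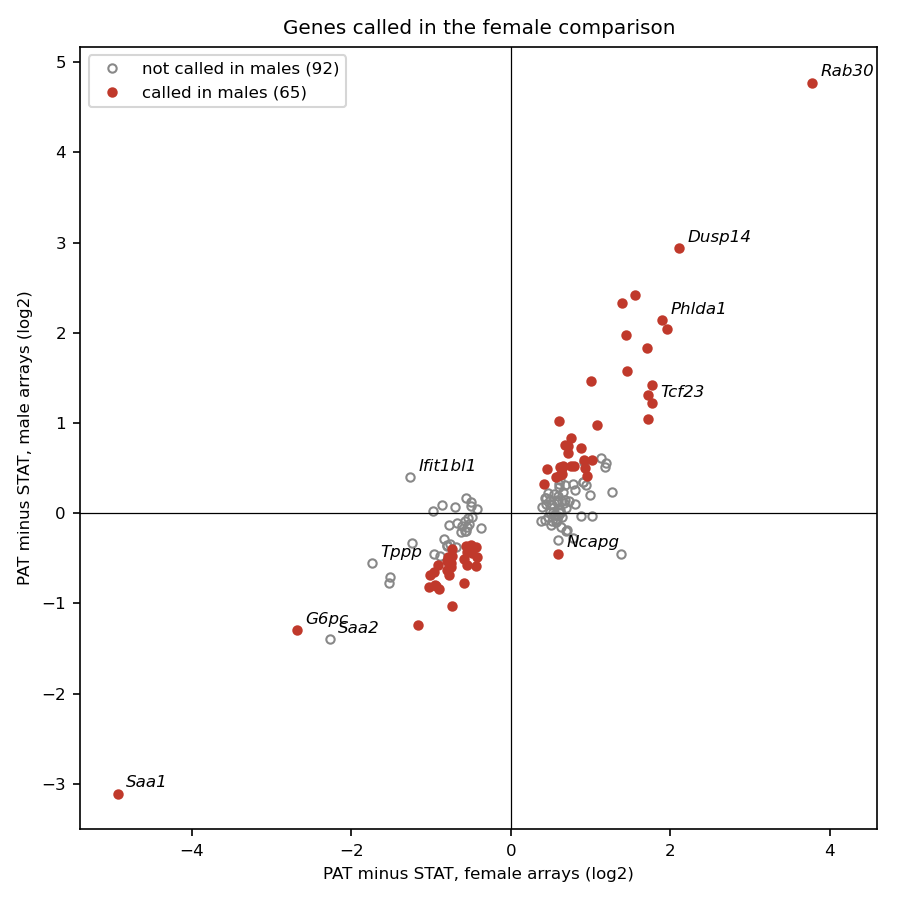
Log2 difference between PAT and STAT in female arrays (horizontal axis) and in male arrays (vertical axis) for the 157 genes called in females. Filled points, 65 in number, were also called in males; most points lie to the lower left and upper right, with Ncapg called in opposite directions.

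The PAT to STAT difference itself differed between the sexes for 3 genes (0.0165%), which limma's interaction contrast called. Kif20b, a mitotic kinesin, differed by 0.40 ± 0.15 in females (adjusted p = 0.2) and fell by 0.87 ± 0.14 in males, an interaction of 1.27 ± 0.21 (adjusted p = 0.045). Ncapg, a condensin subunit, rose by 0.60 ± 0.13 in females and fell by 0.45 ± 0.12 in males (1.05 ± 0.18, adjusted p = 0.045). Ndufa5, a subunit of respiratory complex I, differed by 0.30 ± 0.08 in females (adjusted p = 0.066) and fell by 0.33 ± 0.07 in males (0.62 ± 0.10, adjusted p = 0.045). Without STAT males 2 and 3, Slc37a2 alone was called (2.58 ± 0.38, adjusted p = 0.033), which was named after its value was seen. Leaving out single arrays gave from 0 to 1396 calls. The highest count came without STAT male 1. It was 226 without PAT male 5, 81 without PAT female 3, 52 without STAT female 3, 50 without PAT male 4 and 0 without any other PAT or STAT array. When probe sets of 1 gene were averaged, the interaction was 0.63 for Kif20b (adjusted p = 0.096), 0.57 for Ncapg (adjusted p = 0.11) and 0.55 for Ndufa5 (adjusted p = 0.082).

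The cell division list had a median PAT to STAT difference of 0.51 in females and -0.30 in males. In males 6 members fell (5.24% of all genes did) and 0 rose (3.47% did). All 25 members had a positive interaction value (median 0.78), against 49.3% of all genes, and 19 had an unadjusted p under 0.05, against 18.4% of all genes. The list's mean level was 8.32 to 9.03 in PAT males and 8.77 to 9.15 in STAT males, which overlap. Immediate early genes rose in males in 12 of 20 members (3.47% of all genes did), with a median of 1.08, and 0 were called in females. Their interaction median was -0.77, with 2 of 20 members above 0 and 5 with an unadjusted p under 0.05. Brush border genes had a male median of 0.39 with 3 higher and 0 lower, against -0.30 in females, and an interaction median of -0.71 with 1 of 15 above 0 and 12 with an unadjusted p under 0.05. These male values moved with STAT males 2 and 3, whose brush border mean levels were 11.19 and 11.33 against 11.86 in STAT male 1. Without both arrays, which leaves 1 STAT male, the male medians were -0.11 for cell division, 0.69 for immediate early and -0.02 for brush border genes. The interaction medians were then 0.59, -0.41 and -0.31, with 10 of 25, 0 of 20 and 1 of 15 members at an unadjusted p under 0.05, against 7.99% of all genes, and all 25 cell division members above 0, against 54.3% of all genes.

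**Figure D5:**
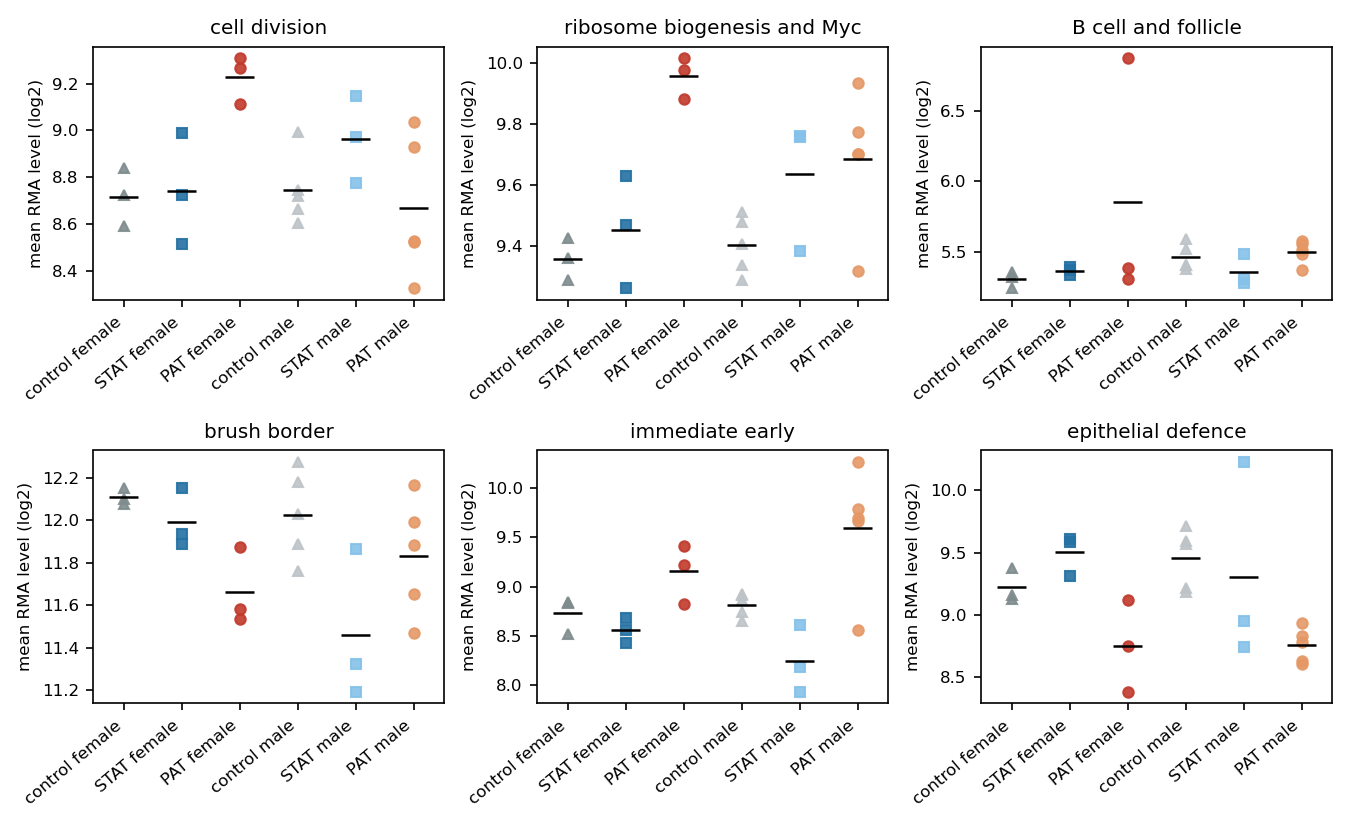
Mean RMA level (log2, vertical axis) of 6 gene lists in each array of the 6 groups, with bars for group means. PAT females lie above the other female arrays for cell division (9.11 to 9.31). For epithelial defence they lie below them (8.38 to 9.12), but only just below the lowest control female (9.13). PAT female 1 is alone at 6.87 for B cell and follicle markers.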

How the data were processed

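The authors deposited log2 levels, 1 per probe set and array, from RMA in affy, per the submitters' processing notes. RMA includes background correction, normalization and summary over probes, and background draws the fold changes of dim genes toward 1. Their versions are not given in the sources used. Of 45101 probe sets 34945 had exactly 1 gene symbol in the platform annotation. Its brightest probe set on average over 22 arrays stood for each of 18193 genes. Limma 3.58.1 in R 4.3.3 fitted 1 mean per group over all 22 arrays, with 16 residual degrees of freedom, and eBayes added 4.88 more. P-values were two-sided and adjusted by Benjamini-Hochberg over all genes. The script was tested on simulated data. Genes were named by rule: the 12 largest called rises and falls whose brighter group averaged 6 or more, up to 4 called members of each of 43 lists, listed members that were not called as values only, and called interaction genes. The members and lists were chosen with earlier results of these data known. Alternatives changed scaling, probe sets, filter, arrays, variance model and RNA end differences. Array number limits the precision. No column of per-sample values was left unused. Promoter windows came from RefSeq (GRCm38.p6).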

Additional observations from a re-analysis of the deposited data

Results flagged for a closer look

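PAT male 5 lay far from the other 4 PAT males for 2 named genes. Phlda1 was at 9.33 there, with the next array at 11.17 and the highest at 11.41. Fhl1 was at 11.16, with the next at 11.70 and the highest at 11.90. Of the groups tested for such a gap, 24 in all, 2 showed one, and chance alone gives about 1 in 20.

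The difference between PAT and STAT differed between females and males by limma's interaction contrast for Kif20b (1.27 ± 0.21), Ndufa5 (0.62 ± 0.10) and Ncapg (1.05 ± 0.18), all on the log2 scale with an SE and with an adjusted p of 0.045.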

How the results depend on the processing

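Of 157 calls between PAT and STAT females, limma made 239 with quantile normalization repeated, 43 with the 6 arrays alone, 356 with the 9 female arrays, 640 with array weights, 460 with the beta-actin end difference as a covariate, and from 29 to 118 when 1 array was left out. With PAT female 1 and STAT males 2 and 3 all left out, an alternative added after seeing the data, 84 were called, 63 of them among the 157. Centring, the mean of probe sets, the filter on low means, a trended robust variance, single probe sets and the Gapdh end difference gave counts within 1.5 times the main one (122 to 222). With the Gapdh term all 157 genes kept their sign and 24 of the 33 named genes their call, the other 9 being Saa1, Tppp, Fhl1, Psat1, Irf1, Reg3g, Rrs1, Odc1 and Nip7. No named gene changed sign in any alternative run. Between PAT and STAT males 62 were called without STAT males 2 and 3. The interaction count of 3 became 1 with columns centred and 1 without those 2 males, 0 with quantile normalization repeated, with the mean of probe sets and with either end difference as a covariate, and from 0 to 1396 when 1 array was left out. The causes were not tested. No paired analysis was possible because the array titles share no replicate number between groups. Background draws differences of dim genes together, which limits 12 called genes with a mean under 6 in both groups.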
